A study of Mus musculus with 24 samples.

Results

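The genes described here are 10 of the 56923 gene identifiers counted in each library: Pcm1, Akap6, Akap9, Pcnt, Cdk5rap2, Syne1, Syne2, Cep290, Ninl and Lmna. They were chosen by name, with earlier results of these data known. They encode proteins of centriolar satellites, of the pericentriolar matrix and of the nuclear envelope, and all 10 were among the 20368 genes tested. The libraries were made from nuclei of mouse cardiomyocytes (CMs) that had been sorted by an antibody against PCM1, so the first of these genes encodes the marker by which the nuclei were chosen. Nuclear RNA was measured at postnatal days 1, 7 and 14 (P1, P7 and P14) in 2 genotypes, with 4 libraries per genotype and day. Control mice were XMLC2(-)Casp2(fl/fl), with both Casp2 alleles floxed and no Cre transgene, and the labels also call them WT. Casp2-depleted mice were XMLC2(+)Casp2(fl/fl), with the same floxed alleles and a Cre transgene driven in CMs by the XMLC2 promoter. No library came from mice with Cre and unfloxed Casp2. Each library was a pool of 15 hearts at P1, 6 at P7 and 2 at P14, so the spread between libraries is one between pools and not between animals. Quality led the study to drop replicate 1 of P1 control, replicate 3 of P14 control and replicate 1 of P14 Casp2-depleted nuclei, so 21 libraries remained, 3 or 4 per group. The study proposes cytoplasmic contamination in the first and reports few detected genes in both dropped P14 libraries. In the counts used here these detected 2049 and 4285 genes, against 7628 to 17770 in the kept libraries.

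PCM1 is the scaffold of centriolar satellites, small granules that carry proteins to and from the centrosome. In dividing cells the centrosome anchors microtubules. In CMs this task passes around birth to the outer nuclear membrane, where nesprins encoded by Syne1 hold the anchoring protein AKAP6, which in turn binds AKAP9 and pericentrin, the product of Pcnt. PCM1 protein at the nuclear envelope is therefore a marker of CM nuclei in the heart, and lamins A and C, from Lmna, line the inner face of that envelope.

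The 21 libraries held 891817 to 2924097 reads on genes. Values below are CPM, read counts relative to library size, scaled by the trimmed mean of M values (TMM) unless said otherwise. The sums of markers and the bound for a count of 0 are CPM of reads on genes without TMM factors. A count of 0 allows at most 3 reads, which is 1.03 to 3.36 CPM depending on the library, for counting error only. The summed level of 10 CM markers was 12633 to 89577 CPM, against 75.4 to 379 CPM for 8 fibroblast markers and 141 to 1277 CPM for 8 endothelial markers, of which Egfl7 was at 0 throughout. CM markers thus stood above those of the other cell types in each library. Casp2 itself gave 9 reads in the P7 control libraries, 8 in the P7 Casp2-depleted libraries and 0 in those of P1 and P14, too few to check the genotype. In bulk libraries, fewer nuclei of a type and less RNA per nucleus cannot be told apart.

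Levels of different genes are given per length. Reads were counted over exons and introns, so CPM were divided by the span of each gene. The libraries were primed at stretches of A, and whether reads scale with span was not tested. By CPM without length the order was Akap6, Akap9, Syne1, Pcnt, Syne2, Pcm1, Cdk5rap2, Cep290, Lmna and Ninl. Per length, the median of 20183 genes was 51.2 CPM per 100 kb. As means of the 21 libraries, the order was Akap9 with 210.4 CPM per 100 kb, Pcnt with 180.2, Akap6 with 118, Pcm1 with 109.8, Lmna with 101, Cep290 with 51.1, Syne2 with 45.0, Syne1 with 43.2, Cdk5rap2 with 28.7 and Ninl with 17.1. The ranges over libraries of all neighbours in this order overlapped. The order shifted with the day. Akap9 led at 416 CPM per 100 kb in P7 control nuclei and was at 37.9 in P14 control and 25.0 in P14 Casp2-depleted nuclei, below Akap6 in both of these groups. Akap6, at 73.0 CPM per 100 kb in P14 Casp2-depleted nuclei, is a gene of 456 kb on chromosome 12 of which 3.85% is exonic, and Syne1 spans 531 kb of chromosome 10. Ninl gave no read in 6 libraries, Lmna in 2, and Pcm1 and Pcnt in 1 each.

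**Figure D1:**
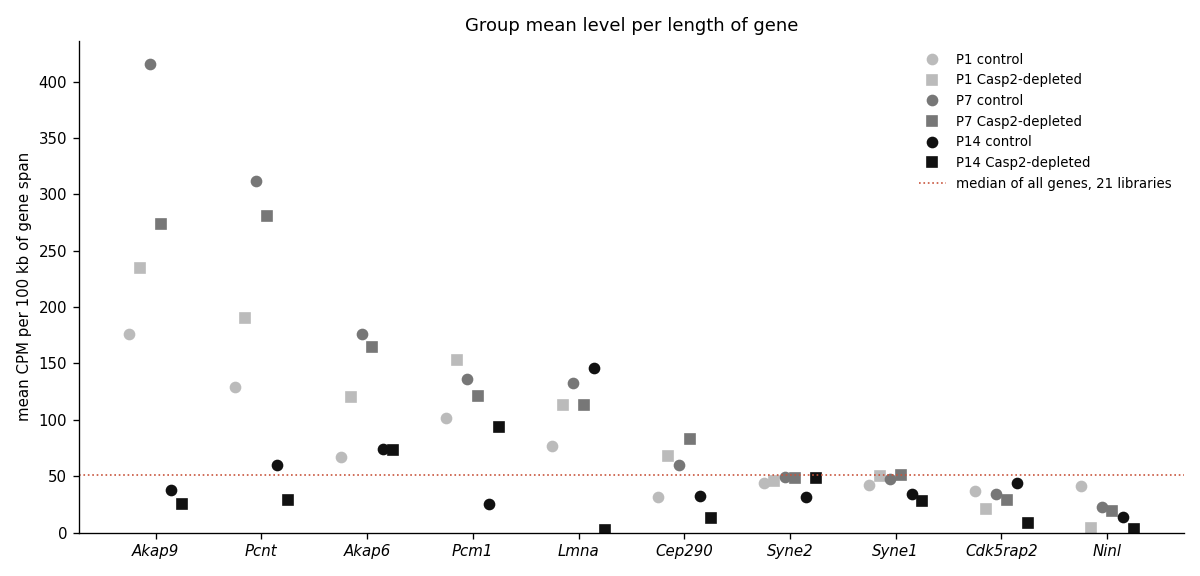
Mean level of each gene in CPM per 100 kb of gene span (linear axis from 0, dotted line at the median of all genes) in the 6 groups of day and genotype. Akap9 and Pcnt stand highest at P7, at 416 and 312 CPM per 100 kb in control nuclei, and Ninl is lowest over all 21 libraries at 17.1.

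The smallest adjusted p among these genes was that of Akap9, a large scaffold that anchors protein kinase A and γ-tubulin complexes at the centrosome and Golgi (chr5:3978054-4131310, plus strand, GRCm39). Its RNA fell between P7 and P14 in both genotypes. In control nuclei it stood at 506, 1008, 736 and 299 CPM in the 4 libraries at P7 and at 85.5, 57.8 and 31.1 CPM in the 3 at P14. In Casp2-depleted nuclei it stood at 511, 283, 510.4 and 376 CPM at P7 and at 24.7, 66.8 and 23.6 CPM at P14. Each P14 library was below each P7 library of its genotype. The fall was 10.9-fold in control nuclei (log2 fold change -3.45, SE 0.62, adjusted p = 1.96e-05) and 10.9-fold in Casp2-depleted nuclei (-3.45, SE 0.62, adjusted p = 6.34e-06) by edgeR's quasi-likelihood test, with p-values adjusted after Benjamini and Hochberg over all genes tested. A difference is called here where this adjusted p is under 0.05 and the log2 value is beyond 1 in either direction. The test of the difference between these falls gave a log2 value of 0.00, with a 95% interval of -1.72 to 1.72 from the SEs of both falls. The left-out P14 Casp2-depleted replicate 1 held 1001 reads of Akap9, or 694.6 CPM of its reads on genes, and P14 control replicate 3 held 0. These libraries detected 4285 and 2049 genes, fewer than any kept library. With all 24 libraries in the fit the falls were not called, at -3.79 in control (adjusted p = 0.0663) and -1.47 in Casp2-depleted nuclei (adjusted p = 0.374, edgeR). Nor were they with limma, which the study used for its own test. The limma values were -3.41 in control (adjusted p = 0.0835, TMM) and -2.86 (adjusted p = 0.129, quantile), and -3.63 (adjusted p = 0.125) and -3.29 (adjusted p = 0.134) in Casp2-depleted nuclei. DESeq2 called both falls.

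The P1 libraries of Akap9 were more scattered, at 157, 163 and 492 CPM in control and at 342, 73.0, 96.2 and 929 CPM in Casp2-depleted nuclei. All were above the P14 libraries of their genotype, but the fall from P1 to P14 passed the test in Casp2-depleted nuclei (9.36-fold, log2 fold change -3.23, SE 0.61, adjusted p = 5.15e-05) and not in control nuclei (-2.22, SE 0.60, adjusted p = 0.0701) by edgeR's quasi-likelihood test. In CPM of reads on genes without TMM factors, P1 Casp2-depleted replicate 2, at 84.7 CPM, lay below P14 Casp2-depleted replicate 3, at 97.8 CPM. Without P1 Casp2-depleted replicate 4, at 929 CPM, the Casp2-depleted value was -2.08 (adjusted p = 0.0448), and limma did not call it, at -2.91 with both normalizations (adjusted p = 0.311 with TMM and 0.229 with quantile). The difference between the genotypes was not called, at a log2 value of -1.01. The control value was called without P1 control replicate 2 (-2.37, adjusted p = 0.0445), without P14 control replicate 1 (-2.60, adjusted p = 0.0386), and with the percentage of unassigned reads as a covariate (-1.86, adjusted p = 0.0402). Between P1 and P7 Akap9 differed by a log2 value of 1.24 in control (SE 0.56, adjusted p = 0.626, edgeR) and 0.22 in Casp2-depleted nuclei, neither called.

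Pcnt, which encodes pericentrin, the coiled-coil organizer of the pericentriolar matrix (chr10:76186841-76278706, minus strand), also fell between P7 and P14. It stood at 169, 512, 272 and 193 CPM in the P7 control libraries and at 154, 10.5 and 0 CPM at P14. In Casp2-depleted nuclei it stood at 194, 449, 249.7 and 138 CPM at P7 and at 19.7, 48.5 and 11.8 CPM at P14. The groups did not overlap in either genotype, although P14 control replicate 1, at 154 CPM, came close to the lowest P7 library. In CPM of reads on genes without TMM factors that library, at 170 CPM, was above P7 control replicates 1 and 4, at 142 and 157 CPM. The fall was 9.62-fold in Casp2-depleted nuclei (log2 fold change -3.27, SE 0.75, adjusted p = 0.00131) and 5.21-fold in control nuclei (-2.38, SE 0.72, adjusted p = 0.0497, edgeR's quasi-likelihood test), and the difference between these values, -0.89, was not called.

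The control call of Pcnt lay at the threshold. When each of the 21 libraries was left out in turn it was held 4 times, without P1 Casp2-depleted replicate 2 or 3, P14 control replicate 1 or P14 Casp2-depleted replicate 2. Of the other alternatives it was held in the one that drops the fold change threshold, which leaves the fit as it was. With the replicate number, which the deposited names call a batch, as a block it was -2.80 (adjusted p = 0.0831, edgeR). The adjusted p ran from 5.12e-06, without P14 control replicate 1 (-5.75), to 0.632 with the percentage of unassigned reads as a covariate (-1.27). The call in Casp2-depleted nuclei was held in 27 of 34 settings. It was lost with limma (adjusted p = 0.156 with TMM and 0.202 with quantile) and without P14 Casp2-depleted replicate 4 (-2.68, adjusted p = 0.0825). With all 24 libraries neither was called, at -1.30 in control (adjusted p = 0.580) and -2.89 in Casp2-depleted nuclei (adjusted p = 0.225). From P1, where Pcnt ranged from 26.5 to 165 CPM in control and from 63.0 to 354 CPM in Casp2-depleted nuclei, it fell 6.52-fold to P14 in Casp2-depleted nuclei (-2.70, SE 0.73, adjusted p = 0.0171, edgeR). Single libraries decided this value too. The call was lost without P1 Casp2-depleted replicate 4 (-2.06, adjusted p = 0.217), P14 Casp2-depleted replicate 2 (-2.53, adjusted p = 0.0929) or P14 Casp2-depleted replicate 4 (-2.17, adjusted p = 0.262). In control nuclei the value from P1 to P14 was -1.11 (adjusted p = 0.502, edgeR), and without P14 control replicate 1 it was -4.48 (adjusted p = 0.00163).

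Akap9 and Pcnt were the 2 of the 10 genes called between P7 and P14 in control nuclei, where 1.88% of all genes tested were called and 1.87% were called lower. They were also the 2 called in Casp2-depleted nuclei, where 2.83% of genes were called and 2.82% lower, and the 2 called from P1 to P14 in Casp2-depleted nuclei, where 1.94% were called and 1.92% lower. None was called from P1 to P14 in control nuclei, where 0.319% of genes were, although 2 (Pcm1 and Akap9) had an unadjusted p below 0.05, as had 11.5% of all genes, and DESeq2 and limma called none. Counts of groups without overlap were larger. In control nuclei the P14 libraries lay wholly below those of P7 for 6 of the 10 genes (Pcm1, Akap6, Akap9, Pcnt, Syne1 and Syne2), against 13.5% of all genes. In CPM of reads on genes without TMM factors, only Akap9 of these 6 stayed apart. The highest P14 and lowest P7 control libraries were then at 170 and 142 CPM of Pcnt, 60.4 and 53.3 CPM of Pcm1, and 729 and 482 CPM of Akap6. For Syne1 they were at 305 and 158 CPM, and for Syne2 at 167 and 69.8 CPM. In Casp2-depleted nuclei they did so for 3 (Akap9, Pcnt and Lmna), against 10.9%. From P1 to P14 the counts were 2 of 10 in control (Akap9 and Syne2, 6.41% of all genes) and 4 of 10 in Casp2-depleted nuclei (Akap9, Pcnt, Cep290 and Lmna, 4.78%). Without TMM factors Syne2 in control and Akap9 in Casp2-depleted nuclei overlapped here. The comparisons of a genotype share libraries, so these values are not independent of each other. By mean CPM over the 21 libraries, Akap9 and Pcnt stood above 98.2 and 95.4% of the genes tested, whose median was 13.8 CPM. Shares among genes of like CPM were not computed, for these genes or for the lists below.

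As a median, the 10 genes differed by a log2 value of -0.81 between P7 and P14 in control nuclei, where all genes tested had a median of -0.75 and the 10 CM markers one of -2.27. In Casp2-depleted nuclei the median was -2.16, against -0.61 for all genes and -2.68 for the 10 CM markers. These medians of all genes depend on the scaling. They were -0.52 and -0.26 with the size factors of DESeq2 and 0.00 in both genotypes with total reads. Genes without a read in either group take a value of 0.00 under any scaling, and a median of 0.00 may be theirs. Calls turned from 99.5% lower to 77.7% lower in control and from 99.7% to 84.7% in Casp2-depleted nuclei with total reads. From P1 to P14 in control nuclei this share went from 98.5 to 82.9%, and between genotypes at P14 from 82.4 to 71.4%. Relative to the median of all genes, Akap9 was at -2.70 with TMM, -2.68 with the size factors of DESeq2 and -2.67 with total reads in control nuclei, and at -2.84, -2.81 and -2.65 in Casp2-depleted nuclei. Relative to that median, Pcnt was at -1.63, -1.64 and -1.71 in control and at -2.65, -2.63 and -2.41 in Casp2-depleted nuclei. Both genes were thus below the median of all genes under each scaling. Syne1 and Syne2, at -0.47 and -0.65 in control nuclei with TMM, lay at 0.34 and 0.11 with total reads, so no direction is given for them.

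Other measures of the libraries moved with the days. The summed level of the 10 CM markers was 59898 to 89577 CPM in P7 control and 12633 to 46999 CPM in P14 control libraries, and 47753 to 69413 against 16035 to 28114 CPM in Casp2-depleted ones, with all 10 detected in each group except for 1 marker in P14 Casp2-depleted nuclei. These sums are without TMM factors, and CM markers were lower at P14 without overlap in both genotypes. By edgeR's log2 values with TMM, the 10 CM markers had medians of -2.27 in control and -2.68 in Casp2-depleted nuclei from P7 to P14. The fibroblast markers had medians of -0.83 and 0.02. The 8 fibroblast markers, all detected, summed to 78.9 to 213 CPM at P7 and 174 to 328 CPM at P14 in control, and to 113 to 181 against 202 to 379 CPM in Casp2-depleted nuclei. The 8 endothelial markers, with Egfl7 at 0, summed to 166 to 331 CPM at P7 and 141 to 1277 CPM at P14 in control, and to 169.5 to 486 against 613 to 691 CPM in Casp2-depleted nuclei, with 7 detected in each of these groups but 5 in the last. The 6 mural and smooth muscle markers went the other way, from 243 to 376 CPM at P7 to 67.2 to 376 CPM at P14 in control, and from 271 to 479 to 109 to 191 CPM in Casp2-depleted nuclei, without overlap in the latter, with 6 detected at P7 and 5 at P14. The 6 macrophage markers, with Cd68 at 0, summed to 42.0 to 84.4 and 44.9 to 303 CPM in control and to 50.6 to 233 and 87.0 to 256 CPM in Casp2-depleted nuclei, with 4 or 5 detected at P7 and 3 at P14. The percentage of uniquely placed reads assigned to no gene was 36.7 to 54.7% at P7 and 63.7 to 75.2% at P14 in control, and 34.3 to 64.3% against 72.2 to 76.1% in Casp2-depleted nuclei. With that percentage as a covariate, Akap9 was at -1.99 in control (adjusted p = 0.0975) and at -2.07 in Casp2-depleted nuclei (adjusted p = 0.0174, edgeR). Over all alternatives, the adjusted p of Akap9 ran from 1.18e-07 to 0.129 in control and from 2.74e-06 to 0.374 in Casp2-depleted nuclei. The part of marker content in these falls was not tested.

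**Figure D2:**
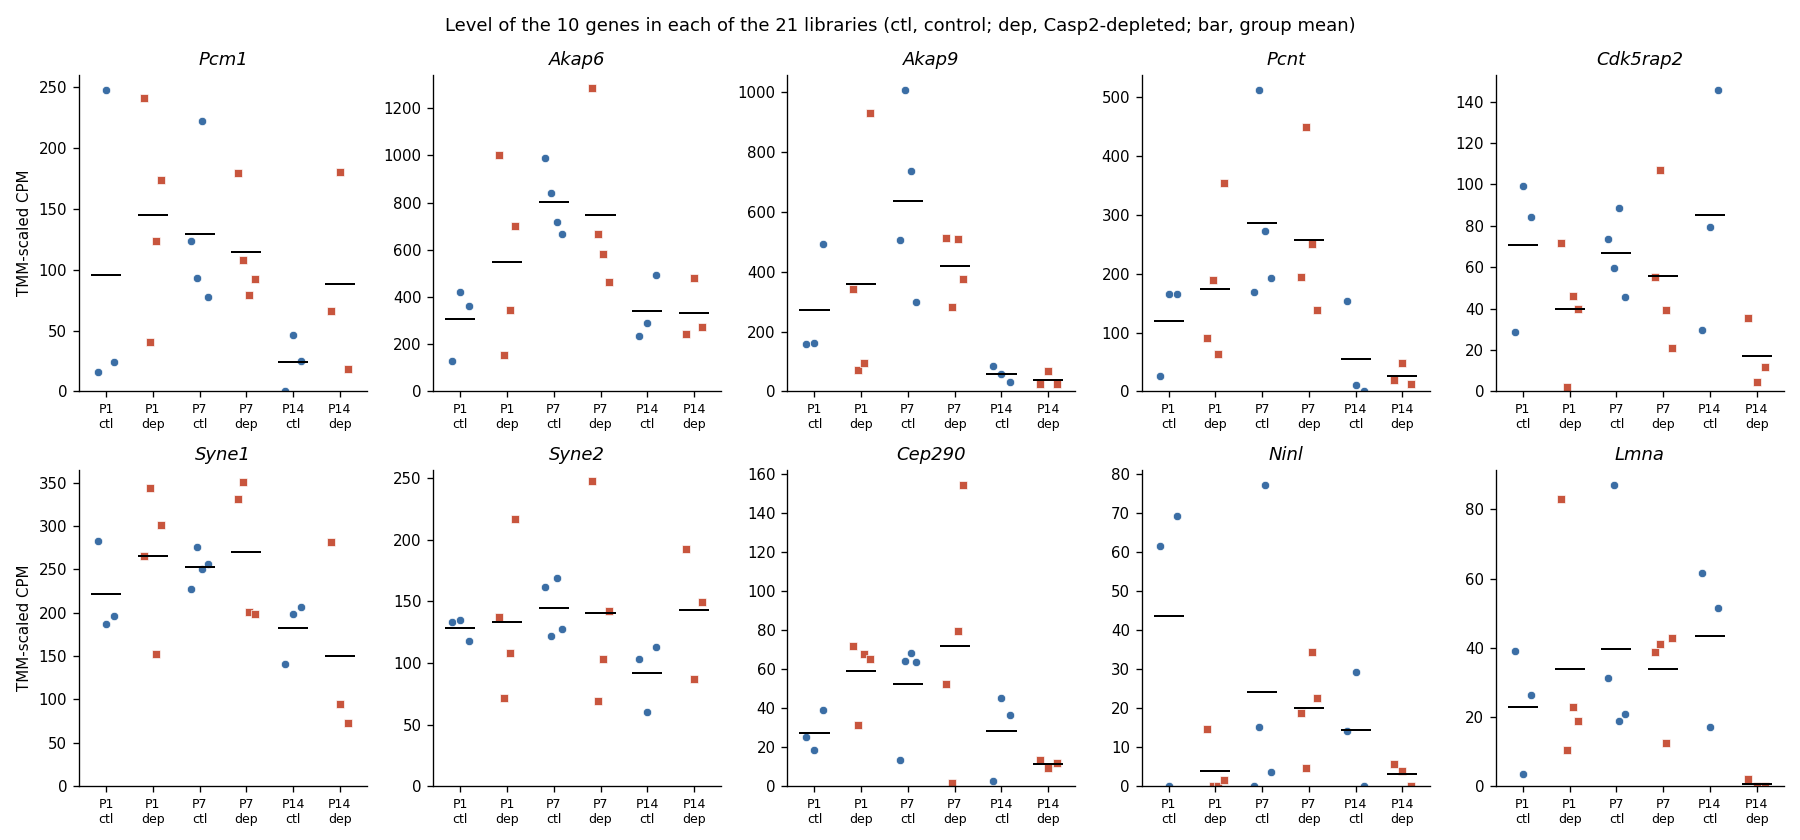
Level of each of the 10 genes in every one of the 21 libraries, in TMM-scaled CPM, by day and genotype, with the mean of each group. The 6 P14 libraries of Akap9 lie between 23.6 and 85.5 CPM, below all 8 libraries of P7, which start at 283 CPM.

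Because Akap9 and Pcnt were called together and Akap6, which anchors both proteins, was not, the promoters of these 3 genes are shown, from 250 bases before to 50 bases after the start. The sequences are from RefSeq on GRCm38.p6. Their positions were found again in GRCm39 by exact match, and they are chr5:3977936-3978235 on the plus strand for Akap9, chr10:76278697-76278996 on the minus strand for Pcnt and chr12:52745916-52746215 on the plus strand for Akap6. Capitals mark matches to the CCAAT box (CCAAT, read as ATTGG on the other strand) and the GC box (GGGCGG, read as CCGCCC), searched on both strands.
Akap9: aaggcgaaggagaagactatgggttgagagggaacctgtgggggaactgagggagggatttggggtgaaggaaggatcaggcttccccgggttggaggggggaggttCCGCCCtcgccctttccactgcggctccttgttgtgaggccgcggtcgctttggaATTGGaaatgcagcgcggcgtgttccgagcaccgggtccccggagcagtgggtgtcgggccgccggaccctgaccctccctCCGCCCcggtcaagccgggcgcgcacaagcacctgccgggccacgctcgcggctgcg
Pcnt: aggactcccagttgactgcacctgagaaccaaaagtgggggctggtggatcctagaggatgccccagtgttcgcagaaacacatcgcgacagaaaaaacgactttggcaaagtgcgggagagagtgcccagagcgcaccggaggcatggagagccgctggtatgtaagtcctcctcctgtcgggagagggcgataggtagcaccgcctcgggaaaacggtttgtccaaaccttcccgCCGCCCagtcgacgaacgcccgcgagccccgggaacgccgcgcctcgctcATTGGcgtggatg
Akap6: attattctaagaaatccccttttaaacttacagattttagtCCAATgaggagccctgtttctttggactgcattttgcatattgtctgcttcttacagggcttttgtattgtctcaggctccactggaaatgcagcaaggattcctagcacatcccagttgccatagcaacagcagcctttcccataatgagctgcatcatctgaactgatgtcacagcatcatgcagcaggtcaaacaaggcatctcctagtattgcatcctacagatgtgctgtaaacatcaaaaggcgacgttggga
The Akap9 promoter held 27 CpG dinucleotides at 67.7% G and C, that of Pcnt 26 at 61.3%, and that of Akap6 only 2 at 43.7%. All 3 had 1 CCAAT box, which 37.4% of 32851 promoters have. The GC box stood in Akap9 in 2 copies, in Pcnt in 1 and in Akap6 in none, and 35.7% of promoters have it. It also stood in promoters of Cdk5rap2, Cep290, Lmna, Ninl, Syne1 and Syne2, none of which was called by edgeR. Among the 9 genes with an entry, the promoters of Syne2, Cdk5rap2 and Cep290 were also rich in CpG, with 35, 28 and 25, and none of those 3 genes was called. The TATA box (TATAAA, in 13.6% of promoters) was found in a promoter of Syne1, and TTTGAA (17.9%) in that of Cdk5rap2. A match is a stretch of letters and says nothing of a factor bound there.

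Akap6 encodes the muscle A-kinase anchoring protein of the nuclear envelope, which holds kinases, phosphodiesterase and the microtubule organizers at the nuclear rim. In control nuclei it stood at 131, 423 and 364 CPM at P1, at 989, 840.5, 717 and 667 CPM at P7, and at 237, 289 and 493 CPM at P14. The P7 libraries lay above the others of control nuclei. In CPM of reads on genes without TMM factors, P14 control replicate 4, at 729 CPM, was above P7 control replicate 2, at 482 CPM. For 2 of the 10 genes, Akap6 and Pcnt, the P7 control libraries lay wholly above those of P1, against 6.89% of all genes, and of these only Akap6 did so without TMM factors. Neither was called: the log2 difference of Akap6 was 1.39 from P1 to P7 (SE 0.50, adjusted p = 0.626) and -1.24 from P7 to P14 (SE 0.50, adjusted p = 0.231, edgeR's quasi-likelihood test). From P1 to P7, 0.00982% of genes were called in control and 0.0196% in Casp2-depleted nuclei, and none of the 10 genes was in either by edgeR, DESeq2 or limma. An unadjusted p below 0.05 was found for 2 of them in control (Akap6 and Akap9, against 6.67% of all genes) and for 0 in Casp2-depleted nuclei (7.4%).

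In Casp2-depleted nuclei the P1 and P7 libraries of Akap6 overlapped, at 1001, 152, 343 and 703 CPM and at 1284, 668, 584 and 463 CPM. The P14 libraries were at 244, 482 and 273 CPM, of which replicate 3 lay above the lowest of P7. The log2 value from P7 to P14 was -1.17 (SE 0.50, adjusted p = 0.235, edgeR), close to that in control nuclei. With the percentage of unassigned reads as a covariate it was 0.069.

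The nesprins, encoded by Syne1 and Syne2, are giant proteins of the nuclear envelope that link it to the cytoskeleton, and that of Syne1 is the docking site of AKAP6. None of their differences between days was called. Syne1 stood at 227, 276, 250.03 and 256 CPM in P7 control and at 141, 199 and 206 CPM in P14 control nuclei. In P14 Casp2-depleted nuclei it was more spread, at 281, 95.2 and 73.4 CPM. Its group means lay between 150.0 and 270.4 CPM, and the log2 values from P7 to P14 were -0.47 in control (SE 0.59, adjusted p = 0.741) and -0.85 in Casp2-depleted nuclei (SE 0.60, adjusted p = 0.447, edgeR).

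Syne2 had group means between 92.1 ± 28.2 CPM (SD, n = 3, P14 control) and 145 ± 23.8 CPM (SD, n = 4, P7 control). Its P14 control libraries, at 103, 60.0 and 113 CPM, were below those of P1, at 133, 135 and 118 CPM, and of P7, at 162, 122, 169 and 127 CPM. In CPM of reads on genes without TMM factors they overlapped both. In Casp2-depleted nuclei the P14 libraries, at 192, 87.0 and 149 CPM, lay within the range of P7, 69.0 to 248 CPM. None of these differences was called, with log2 values of -0.65 in control (adjusted p = 0.685, edgeR) and 0.02 in Casp2-depleted nuclei from P7 to P14.

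Pcm1, whose product was the target of the sort, varied widely between pools of 1 group. In P1 control nuclei it stood at 16.3, 248 and 23.8 CPM, a 15.3-fold range, and in P1 Casp2-depleted nuclei at 241, 40.7, 124 and 173 CPM. At P7 it stood at 123, 92.9, 223 and 77.2 CPM in control and at 179.8, 107.8, 79.1 and 92.8 CPM in Casp2-depleted nuclei. At P14 it stood at 0, 46.5 and 25.1 CPM in control and at 66.3, 180.3 and 18.3 CPM in Casp2-depleted nuclei.

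All P14 control libraries of Pcm1 were below all P7 control libraries, and replicate 1, from a pool sorted on the protein, had 0 reads of the gene. In CPM of reads on genes without TMM factors, P14 control replicate 2, at 60.4 CPM, was above P7 control replicate 2, at 53.3 CPM. The log2 value of -2.43 (SE 0.87, adjusted p = 0.150, edgeR's quasi-likelihood test) was not called, nor was it in any of 34 alternatives, whose values ran from -4.03 to -1.61 and whose adjusted p ran from 0.108 to 0.574. In Casp2-depleted nuclei the value was -0.38 (SE 0.80, adjusted p = 0.894, edgeR), which turned to 0.44 with total reads. The difference between these steps was 2.05 (SE 1.14, adjusted p = 0.572, edgeR). From P1 to P14 the control value of -2.01 (adjusted p = 0.428, edgeR) rested on P1 control replicate 3, and without that library it was 0.25.

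Cep290 encodes a protein of satellites and of the transition zone of cilia. It stood at 71.9, 31.6, 67.7 and 65.5 CPM in P1 Casp2-depleted nuclei and at 13.4, 9.46 and 11.8 CPM in those of P14, all below, and at 52.3, 1.59, 79.8 and 155 CPM in those of P7, which overlapped both. Neither value was called, with log2 values of -2.35 from P1 (SE 1.41, adjusted p = 0.346) and -2.63 from P7 (SE 1.43, adjusted p = 0.321, edgeR). In control nuclei it was between 2.83 and 68.1 CPM, with a value of -0.90 from P7 to P14.

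Ninl encodes a ninein-like protein that binds γ-tubulin and microtubule ends. It was the least abundant of the 10 genes, with a highest value of 77.2 CPM in P7 control replicate 3 and 0 in 6 libraries. P1 control libraries were at 61.4, 0 and 69.1 CPM and those of P1 Casp2-depleted nuclei at 14.6, 0, 0 and 1.499 CPM. At this depth and spread no difference was detectable, and the largest log2 value, -3.40 between genotypes at P1, had an SE of 2.07 (adjusted p = 0.694, edgeR).

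Cdk5rap2 encodes the pericentriolar protein that activates γ-tubulin ring complexes. Unlike Akap9 and Pcnt it showed no called day difference. In control nuclei its P14 libraries were at 29.7, 79.5 and 146 CPM, around those of P7 at 73.7, 59.8, 88.4 and 45.7 CPM, and the log2 value was 0.34 (SE 1.12, adjusted p = 0.944, edgeR). In Casp2-depleted nuclei its P14 libraries were at 35.3, 4.41 and 11.8 CPM and those of P7 at 55.1, 107, 39.2 and 21.1 CPM, with a log2 value of -1.69 (SE 1.19, adjusted p = 0.445, edgeR).

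Lmna, the gene of the A-type lamins (chr3:88387454-88417299, minus strand), is the shortest of the 10 at 29.8 kb, and 20.8% of it is exonic. In P14 Casp2-depleted nuclei it gave 3 reads in replicate 2 (2.12 CPM) and 0 reads in replicates 3 and 4. In P14 control nuclei it stood at 61.5, 17.3 and 51.6 CPM, and in P7 Casp2-depleted nuclei at 38.8, 41.2, 12.4 and 42.9 CPM. No library of these 2 groups, nor of P1 Casp2-depleted nuclei (83.0, 10.5, 23.0 and 19.0 CPM), was as low. In P1 control nuclei, however, replicate 3 was close to the former value, at 3.52 CPM (5 reads), beside 39.1 and 26.2 CPM in replicates 2 and 4. By summed reads scaled for depth, P14 Casp2-depleted nuclei were 66.1-fold lower than P14 control nuclei (3 against 178 reads, exact 95% interval 22.3 to 323.7), 51.5-fold lower than P7 Casp2-depleted nuclei (214 reads, 17.4 to 251.6) and 55.2-fold lower than those of P1 (252 reads, 18.7 to 269.5). These intervals cover counting error only.

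The quasi-likelihood test, which includes the spread between pools, called none of these differences of Lmna. The log2 value at P14 between genotypes was -5.82 (SE 2.16, adjusted p = 0.359), and from P7 to P14 in Casp2-depleted nuclei it was -5.46 (SE 2.09, adjusted p = 0.170, edgeR). DESeq2 called both, at -6.01 (adjusted p = 0.00110) and -5.33 (adjusted p = 0.00211). So did limma, for the difference at P14 with TMM (-5.88, adjusted p = 0.0102) and with quantile normalization (-5.58, adjusted p = 0.0204), and from P7 to P14 with TMM (-5.56, adjusted p = 0.00224) and with quantile normalization (-5.04, adjusted p = 0.00436). From P1 to P14 in Casp2-depleted nuclei, where edgeR gave -5.46 (adjusted p = 0.180), DESeq2 (adjusted p = 0.00140) and limma (adjusted p = 0.00605 with TMM and 0.00821 with quantile) called Lmna as well. The adjusted p of the P14 difference thus ran from 0.00110 to 1 over 35 alternatives. The left-out P14 Casp2-depleted replicate 1 held 194 reads of Lmna, 134.6 CPM of its reads on genes, and with all 24 libraries the P14 difference was -0.48 (adjusted p = 1).

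**Figure D3:**
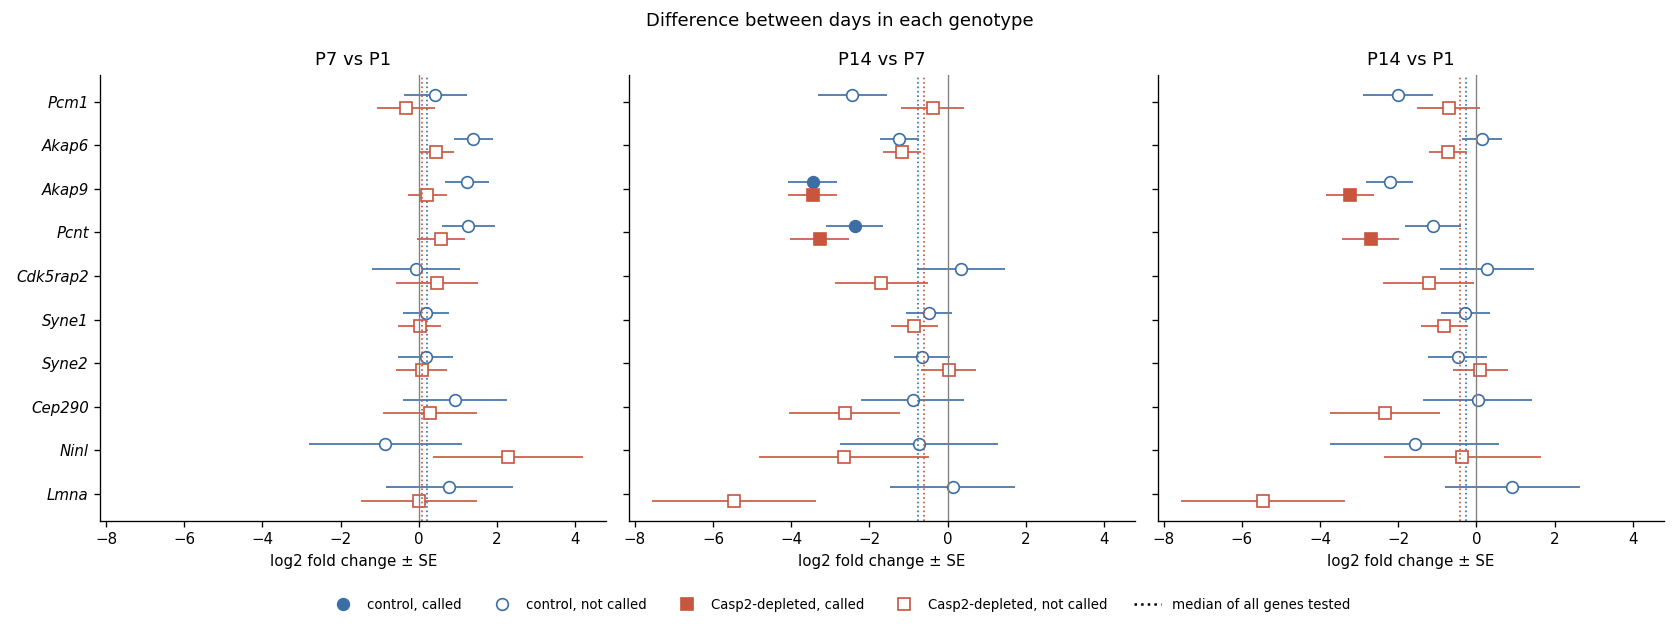
Log2 fold changes of the 10 genes from P7 to P14 and in the other day comparisons, with bars of 1 SE, in control (circles) and Casp2-depleted nuclei (squares), filled where called, and dotted lines at the median of all genes tested. Akap9 is at -3.45 from P7 to P14 in both genotypes, Pcnt at -2.38 in control and -3.27 in Casp2-depleted nuclei, and Lmna at -5.46 in Casp2-depleted nuclei was not called.

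The comparison of genotypes asks how loss of Casp2, the protease of the PIDDosome that limits the ploidy of CMs, bears on these genes at each day. None of the 10 was called by edgeR at P1, P7 or P14, where it called 0, 0 and 0.167% of all genes. Over all genes, DESeq2 called 105, 25 and 651 at these days. With limma the counts were 49, 0 and 116 (TMM) and 63, 1 and 149 (quantile). The paper reports genes that differ at P7 by limma, Cdkn1a among them. At P1 and P7 none of the 10 had an unadjusted p below 0.05 by edgeR, against 7.34% and 4.22% of all genes. DESeq2 and limma called none of the 10 at P1 and P7. At P14, 2 had such an unadjusted p, Pcm1 and Lmna, against 12.8%. The groups did not overlap for Lmna alone, lower in Casp2-depleted nuclei, against 2.14% of all genes. At P14 the median of the 10 genes was -0.82. Over all genes tested it was 0.00 under each scaling, a value that genes without a read in either group take. The 10 genes all had reads in both groups, so these medians are not like measures.

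Pcm1 differed by a log2 value of 1.89 between genotypes at P14 (SE 0.89, adjusted p = 0.388, edgeR), with 18.3 to 180.3 CPM in Casp2-depleted and 0 to 46.5 CPM in control nuclei, which overlap. The value was 0.81 without P14 Casp2-depleted replicate 3, and adjusted p ran from 0.181 to 1 over 35 alternatives. Akap9 differed at P14 by -0.60 (SE 0.58, adjusted p = 0.798, edgeR), with a 95% interval of -1.74 to 0.55, which does not show that the genotypes are alike. Cdk5rap2 had a value of -2.30 at P14 (SE 1.27, adjusted p = 0.399, edgeR) with 79.5 and 146 CPM in 2 control libraries and 35.3 CPM as the highest of the Casp2-depleted ones. The third control library, at 29.7 CPM, lay among these. The steps between days did not differ between genotypes by the test for any of the 10 genes, and 0, 0.0245 and 0.0638% of all genes were called for the steps from P1 to P7, P7 to P14 and P1 to P14. In these, 0, 1 and 1 of the 10 genes had an unadjusted p below 0.05, against 6.83, 9.76 and 11.7% of all genes. That gene was Lmna, which DESeq2 called in the latter pair of steps.

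**Figure D4:**
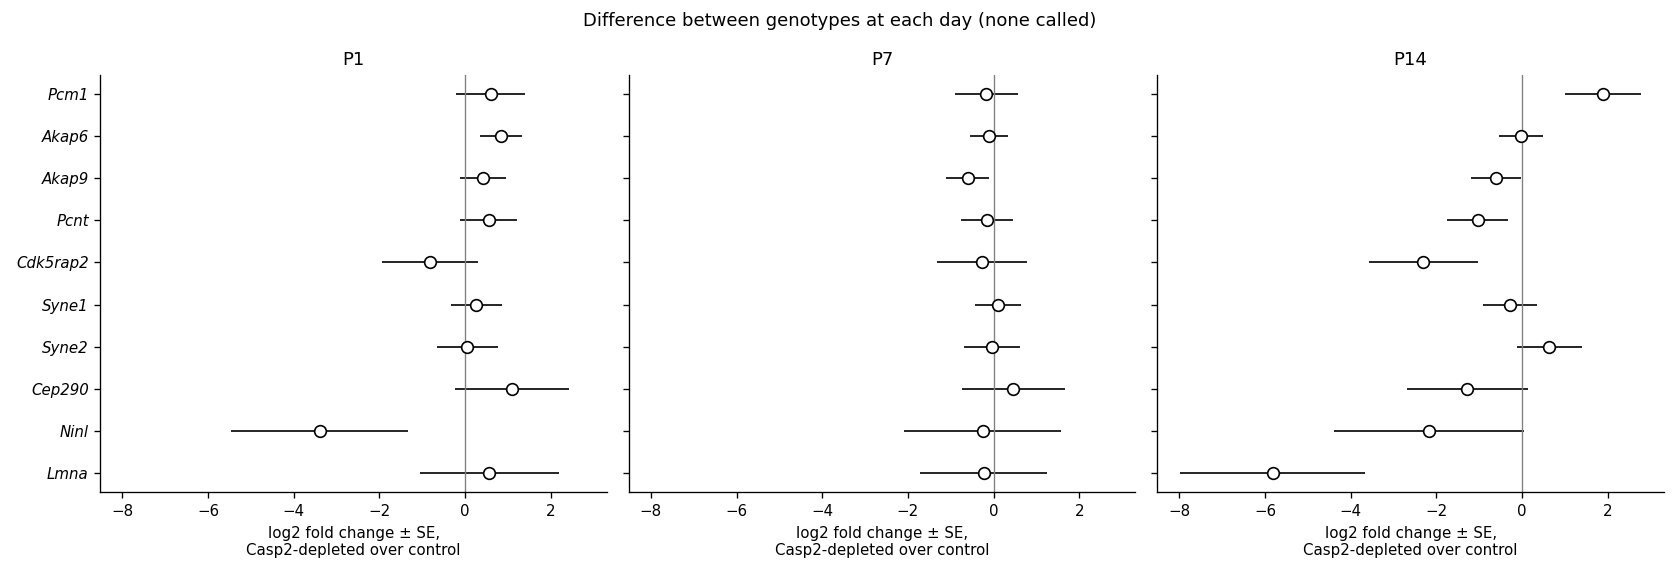
Log2 difference between Casp2-depleted and control nuclei for the 10 genes at P1, P7 and P14, with bars of 1 SE. At P14 the values run from -5.82 for Lmna to 1.89 for Pcm1, and none was called by edgeR.

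Over the 21 libraries, Akap9 and Pcnt varied most alike among the 45 pairs of these genes, with a Pearson's r of 0.79 for their log2 CPM. Akap6 and Akap9 had an r of 0.66, and Pcm1 and Akap6 of 0.63. Pcm1 and Lmna had the lowest, at -0.12. These are descriptions over libraries that share days, genotypes and depth. Among 3035 genes with a read in each of the 21 libraries, those whose log2 CPM was most like that of Pcm1 were Brwd1 (r = 0.83), Osbpl9 (0.81), Scmh1 (0.81), Senp7 (0.80) and Pank1 (0.78), and none of the other 9 genes was as close to Pcm1.

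Overlapping genes on the same span were checked, since reads there can be set aside as ambiguous. Ambiguous reads were 0.704 to 2.08% of uniquely placed reads in the kept libraries. Cyp51, which lies over 7895 bases of Akap9, had 85 reads in all and Rlig1, over 3604 bases of Cep290, had 561. Pcnt overlaps Gm56118 over 204 bases. Ninl also overlaps Nanp over 14868 bases, and the counting's strand setting is not given in the sources used here.

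Further genes of these structures were described from 6 lists. In the day comparisons 16 of their genes gave 33 calls, and all 33 were lower at P14, as were 98.5 to 99.7% of the calls over all genes in these comparisons and fewer with total reads (77.7% in control and 84.7% in Casp2-depleted nuclei from P7 to P14). From P7 to P14, 1.87% of all genes tested were called lower in control and 2.82% in Casp2-depleted nuclei, with medians of -0.75 and -0.61. Of these, 15 calls held without each library in turn and 18 were lost without at least 1. Of 20 other genes of centriolar satellites, none was called from P7 to P14 in control and 1 in Casp2-depleted nuclei. The medians were -0.78 and -1.10, or -0.56 and -0.91 with genes at 0 in a group set at the bound that 3 reads allow. Medians with bounds leave out genes at or under 3 reads in both groups. The medians of all genes were taken without bounds. The called gene, Spag5, whose protein astrin serves the mitotic spindle and the centrosome, had 259 reads at P7 and 0 at P14, at least 62.3-fold lower (adjusted p = 0.00557, edgeR), a call lost without P14 Casp2-depleted replicate 3 (-8.76) or 4 (-8.76). The genes of this list with the most reads, Bbs9, Sdccag8 and Pibf1, stood at 25.7, 49.8 and 65.3 CPM per 100 kb over the 21 libraries, and none of them was called.

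Of 19 genes of the pericentriolar matrix and γ-tubulin complexes, 1 was called in each genotype from P7 to P14, with medians of -1.41 in control and -0.95 in Casp2-depleted nuclei (-1.08 and -0.95 with bounds). Both encode proteins that bind the minus ends of microtubules that no centrosome holds. Camsap1 was at 62.5 CPM in P7 control and at 0 in all P14 control libraries, at least 81.8-fold lower (adjusted p = 0.00365, edgeR). Camsap2 went from 200.3 to 30.6 CPM in Casp2-depleted nuclei (log2 fold change -2.71, adjusted p = 0.0184, edgeR), and that call was lost without P1 Casp2-depleted replicate 1 (-2.49), P7 Casp2-depleted replicate 2 (-2.03), P14 Casp2-depleted replicate 3 (-1.90) or 4 (-2.67). Pde4dip, which encodes myomegalin, a relative of the product of Cdk5rap2, stood at 623 CPM per 100 kb as a mean of the 21 libraries, against 182 for Camsap2 and 103 for Cep192, and was not called.

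Of 22 genes of centrioles and their appendages, 4 fell from P7 to P14 in control and 2 in Casp2-depleted nuclei, beside 1.87 and 2.82% of all genes, with medians of -1.96 and -1.20 (-1.84 and -1.12 with bounds). Cetn3, a centrin, was at 150 CPM in P7 control and at 0 in all P14 libraries of both genotypes, at least 204-fold lower in control (adjusted p = 0.000180) and at least 128-fold lower in Casp2-depleted nuclei (adjusted p = 0.000353, edgeR). Cntrl, the gene of centriolin, fell in both, from 148 to 9.65 CPM (-3.92, adjusted p = 0.0125) and from 143 to 15.7 CPM (-3.19, adjusted p = 0.0444, edgeR). Cep83, of the distal appendages, and Cep97, which caps centrioles, fell in control nuclei, with a log2 fold change of -4.79 (adjusted p = 0.0174) and at least 62.2-fold lower (adjusted p = 0.0440, edgeR). The calls of Cep97 and, in Casp2-depleted nuclei, of Cntrl were held without only 7 and 5 of the 21 libraries, and the latter was also lost with the replicate block (-3.30, adjusted p = 0.0575, edgeR). That of Cep83 was lost without P7 control replicate 2 (-4.80) or 3 (-4.33) or P14 control replicate 1 (-4.21), and that of Cntrl in control nuclei without P7 control replicate 2 (-3.54) or P14 control replicate 2 (-3.45) or 4 (-3.68). Cntln, Odf2 and Cep120, at 51.5, 247.5 and 146 CPM per 100 kb over the 21 libraries, were not called.

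None of 17 other genes of the LINC complex and the nuclear lamina was called in a day comparison. Their medians from P7 to P14 were -2.23 in control and -2.10 in Casp2-depleted nuclei, beside -0.75 and -0.61 for all genes tested and -2.27 and -2.68 for the 10 CM markers. With genes at 0 in a group set at their bound, which was not done for all genes, the medians of the 17 were -1.61 and -1.08. Dst and Plec, large cytoskeletal linkers, and Tor1aip1, which binds torsins and lamins, stood at 127, 134 and 219.9 CPM per 100 kb over the 21 libraries.

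Of 18 genes of motors and adaptors that act at the nuclear envelope, 5 fell from P7 to P14 in control and 3 in Casp2-depleted nuclei, beside 1.87 and 2.82% of all genes. Medians of the 18 were -2.64 and -1.94, against -0.75 and -0.61 for all genes and -2.27 and -2.68 for the 10 CM markers. With bounds, which the medians of all genes do not have, those of the 18 were -2.19 and -1.94. Kif5b, the kinesin heavy chain that nesprins recruit to muscle nuclei, went from 410.2 ± 86.6 CPM (SD, n = 4) to 45.1 ± 8.29 CPM (SD, n = 3) in control and from 358 ± 81.2 to 16.1 ± 17.1 CPM in Casp2-depleted nuclei. These were log2 fold changes of -3.18 (SE 0.67, adjusted p = 0.000518) and -4.47 (SE 0.72, adjusted p = 2.07e-07, edgeR's quasi-likelihood test). Its light chain Klc1 fell as well, with values of -4.26 (adjusted p = 0.0217) and -6.30 (adjusted p = 0.000300, edgeR). Pafah1b1, a dynein regulator, went from 411 to 57.7 CPM in control (-2.83, adjusted p = 0.00298) and from 286 to 60.3 CPM in Casp2-depleted nuclei (-2.25, adjusted p = 0.0233, edgeR). The dynein chains Dync1i2 (-2.70, adjusted p = 0.0415) and Dync1li2 (at least 60.2-fold lower, adjusted p = 0.0249, edgeR) were called in control nuclei. Of these, the calls of Kif5b in both genotypes and of Klc1 in Casp2-depleted nuclei were held without each library in turn. That of Pafah1b1 was lost in control nuclei without P14 control replicate 2 (-2.39) and in Casp2-depleted nuclei without P1 replicate 1 (-2.05), P7 replicate 1 (-1.63), or P14 replicate 3 (-2.19) or 4 (-1.47), and there also with the replicate block (-1.83, adjusted p = 0.127, edgeR). The control calls of Klc1, Dync1li2 and Dync1i2 were held without 14, 15 and 6 of the 21 libraries. Dync1h1, the dynein heavy chain, at 315 CPM per 100 kb, was not called.

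Of 18 partners of AKAP6 and related anchoring proteins, 4 fell from P7 to P14 in each genotype, beside 1.87 and 2.82% of all genes, with medians of -1.39 and -1.30 (-1.39 and -1.84 with bounds). Prkar1a, a regulatory subunit of protein kinase A, went from 169 to 1.25 CPM in control nuclei (-6.99, adjusted p = 0.000227, edgeR). In Casp2-depleted nuclei it went from 855 reads to 2, which is 308.5-fold lower with an exact 95% interval of 85.1 to 2551 for counting error (adjusted p = 3.27e-05, edgeR), and this was the single call held in each alternative run. Akap8, a nuclear anchoring protein, fell by 2.71 and 2.27 on the log2 scale (adjusted p = 0.00201 and 0.0105, edgeR) and Mef2d, a transcription factor that AKAP6 complexes regulate, fell by 2.43 and 2.45 (adjusted p = 0.0140 and 0.00858, edgeR). Ryr2, the calcium release channel and one of the CM markers, went from 17672 to 6956 CPM in control (-1.35, adjusted p = 0.00188) and from 14786 to 3771 CPM in Casp2-depleted nuclei (-1.97, adjusted p = 1.62e-07, edgeR). With quantile normalization in limma, the control value of Ryr2 was 0.66, and with the replicate block it was -1.43 (adjusted p = 0.0976, edgeR), not called. Its control call was lost without P7 control replicate 2 (-0.90) or P14 control replicate 2 (-0.87) or 4 (-1.19). The calls of Mef2d were lost without P7 control replicate 1 (-2.13) or 2 (-2.24) or P14 control replicate 1 (-2.28) or 2 (-2.17) in control nuclei, and without P14 Casp2-depleted replicate 3 (-2.03) or 4 (-1.76) in Casp2-depleted nuclei. That of Akap8 was lost in Casp2-depleted nuclei without P7 replicate 2 (-2.03) or P14 replicate 3 (-1.72). These losses touched 3 of the 4 genes. Pde4d and Akap13, at 240.5 and 143 CPM per 100 kb, were not called.

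The remaining calls of list genes were from P1 to P14. In control nuclei the P14 level of Camsap1 was lower by a factor of at least 94.0 (adjusted p = 0.0143, edgeR), a call lost without P1 control replicate 2 (-9.06) or P14 control replicate 4 (-9.69). In Casp2-depleted nuclei Spag5 was at least 82.6-fold lower (adjusted p = 0.00364) and Cetn3 at least 41.0-fold lower (adjusted p = 0.00520, edgeR), and Prkar1a was 129-fold lower, with 2 reads against 393 (exact 95% interval 35.5 to 1070.3, adjusted p = 0.000862, edgeR). Kif5b (-3.89, adjusted p = 1.26e-05), Klc1 (-6.43, adjusted p = 0.000358), Mef2d (-2.37, adjusted p = 0.0177) and Ryr2 (-1.58, adjusted p = 0.000109, edgeR) also fell there. The genes called from P1 were thus among those called from P7. Of these, the call of Cetn3 was lost without P1 Casp2-depleted replicate 4 (-5.91) or P14 Casp2-depleted replicate 3 (-8.13) or 4 (-8.14), and that of Mef2d without P1 Casp2-depleted replicate 1 (-2.12) or 4 (-1.99) or P14 Casp2-depleted replicate 3 (-1.98) or 4 (-1.71). With the replicate block the calls of Cetn3 (-7.43, adjusted p = 0.0508) and Ryr2 (-1.56, adjusted p = 0.0721, edgeR) from P1 were lost.

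**Figure D5:**
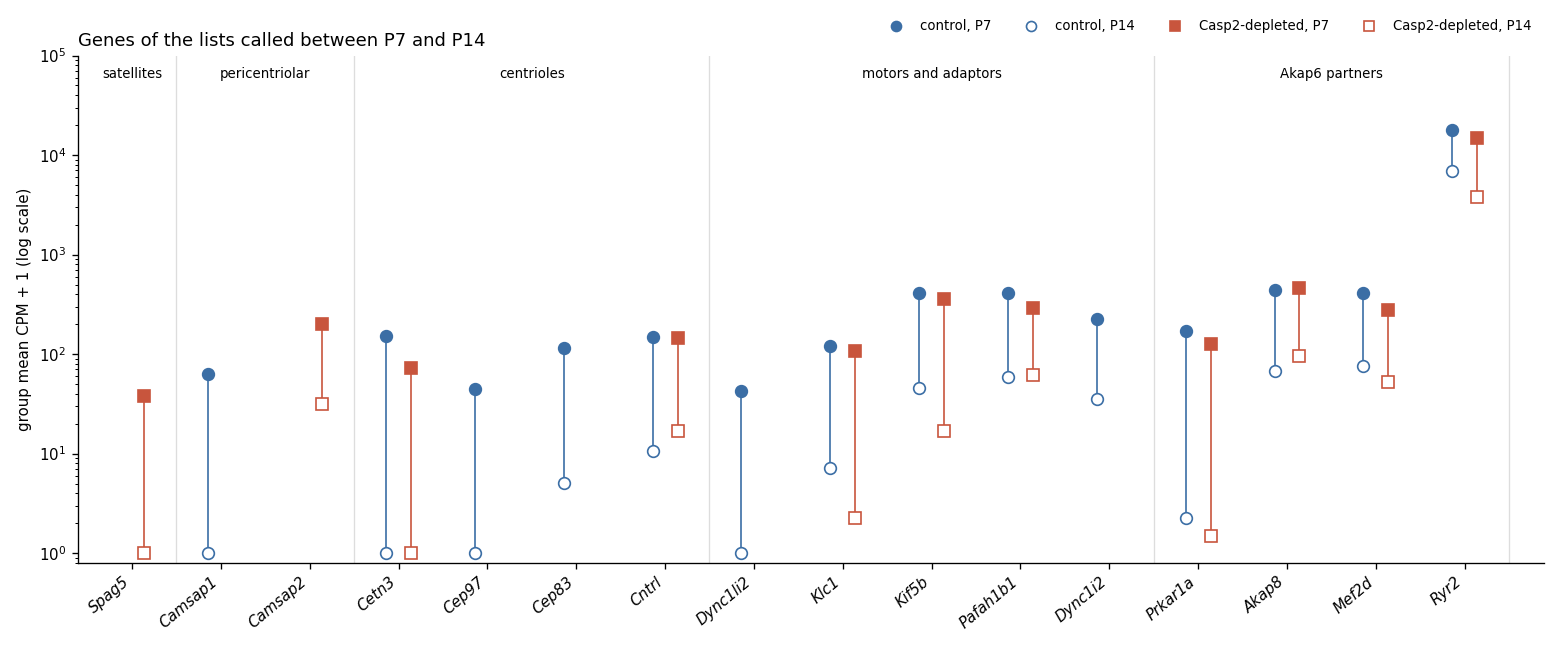
Mean level of each called list gene at P7 (filled) and P14 (open), as CPM plus 1 on a log axis, for the comparisons in which it was called. Each P14 mean is lower than its P7 mean, from Ryr2 at 17672 and 6956 CPM in control to Cetn3 at 150 and 0 CPM.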

How the data were processed

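RNA was measured with QuantSeq 3′ libraries of PCM1-sorted nuclei, 24 libraries in 6 groups. The authors trimmed reads with cutadapt 4.0, aligned them with STAR 2.6.1e to GRCm39 (Ensembl 108) and counted reads over full genes with HTSeq 2.0.3. The deposited values are these raw counts, not normalized. The strand setting and molecular identifiers are not given in the sources used here. Of the deposited identifiers, 56236 were named from GENCODE. Reads assigned to no gene were kept out of library sizes. No 2 libraries of a group agreed within sampling noise (chi-square per degree of freedom 19.1 to 84.1 over 27 pairs).

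Groups were taken from the labels. Counts were tested with edgeR 4.0.16 (R 4.3.3), with TMM factors, glmQLFit with its robust option and 6 group means over 21 libraries (15 residual degrees of freedom), on genes with 10 or more reads in total, seen in 3 or more libraries. Calls required a log2 fold change beyond 1 in either direction, and a Benjamini-Hochberg adjusted p, over all genes tested, under 0.05. The SE is the log2 fold change over the root of F, which is unstable near 0, so the difference between steps has an interval from the SEs of both steps. Intervals are 95%. The log2 CPM used a prior count of 2. Depth was 891817 to 2924097 reads on genes, and the common biological coefficient of variation was 1.5. Nothing in the labels says that pools of a group came from separate litters, so p-values measure the spread between these pools.

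The alternatives were DESeq2 1.42.0, limma 3.58.1 (voom, TMM or quantile), DESeq2's size factors, total reads, other filters, all 24 libraries, equal depth (891817 reads), the replicate number as a block, the adjusted p alone, only the groups compared, the percentage of unassigned reads as a covariate, and leaving out each library. Of these, limma was the software of the study's own test. A fit without the robust option, and all alternatives of the list genes, were added after seeing the data. Exact binomial intervals were used for ratios of few reads. Python 3.11.15, numpy 2.4.6, pandas 2.3.3 and scipy 1.17.1 were used. Scripts were tested on simulated data, where recovery of known changes was required only at a coefficient of variation below that of these data.

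The 10 genes, the 6 lists (120 genes, of which Cenpj was not matched and Tubg2, Camsap3, Emd, Banf1 and Tmem43 were not tested) and the tests were chosen with earlier results of these data known. The text names the 10 genes, the called genes of each list and its 3 genes of highest CPM, and the 5 genes most like Pcm1. The deposited names call the replicate number a batch, so the values with it as a block are printed beside each call that it changed. Deviations of same-numbered libraries of a day correlated at -0.059 to 0.185 over 9 pairs, with 1 above 0.1.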

Additional observations from a re-analysis of the deposited data

Results flagged for a closer look

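Of 30 groups of 4 libraries checked, 4 held a library far from the others. The rule's rate of about 1 in 20 holds for normally distributed values, which low and scattered counts are not, so no excess is read from this. Cep290 was at 31.6 CPM in P1 Casp2-depleted replicate 2, against 65.5 to 71.9 CPM in the other libraries of that group. It was at 13.6 CPM in P7 control replicate 1, against 63.7 to 68.1 CPM. Ninl was at 14.6 CPM in P1 Casp2-depleted replicate 1, against 0 to 1.499 CPM. Lmna was at 12.4 CPM in P7 Casp2-depleted replicate 3, against 38.8 to 42.9 CPM.

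For some of the 10 genes the libraries left out of the fit held signal above the controls of their day, here in CPM of all reads on genes without TMM factors. In P1 control replicate 1, Akap6 was at 841.5 CPM, above the 174 to 389 CPM of the other P1 control libraries. In P14 control replicate 3, Akap6 was at 1095.8 CPM, above 262 to 729 CPM in the other P14 control libraries, Pcnt was at 281.2 CPM, above 0 to 170.5 CPM, and Syne1 was at 396.9 CPM, above 156 to 305 CPM. In P14 Casp2-depleted replicate 1, Akap6 was at 773.7 CPM, Akap9 at 694.6 CPM, Syne2 at 265.1 CPM and Lmna at 134.6 CPM. The P14 control libraries kept in the fit held 262 to 729, 46.0 to 94.6, 77.9 to 167 and 22.4 to 76.2 CPM of these 4 genes. Other genes were at 0 in them. P14 control replicate 3 had no read of Pcm1, Akap9, Cdk5rap2, Cep290 and Lmna and 1 read of Syne2, and P14 Casp2-depleted replicate 1 had no read of Pcm1, Cdk5rap2, Syne1, Cep290 and Ninl. P14 control replicate 3 detected 2049 genes and P14 Casp2-depleted replicate 1 detected 4285, against 7628 to 17770 in the kept libraries. What the left-out libraries share was not tested.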

How the results depend on the processing

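The number of the 10 genes called between P7 and P14 in control nuclei, 2 in the fit reported, was 1 with DESeq2, the size factors of DESeq2, total reads, no filter, edgeR's filterByExpr, equal depth, only the groups compared, the replicate number as a block, and without the robust option. It was 0 with all 24 libraries, with limma (TMM or quantile) and with the percentage of unassigned reads as a covariate. In Casp2-depleted nuclei the count from P7 to P14, 2 in the fit reported, was 1 (Akap9) with total reads, filterByExpr and the covariate, 1 (Lmna, with Akap9 and Pcnt both lost) with limma (TMM or quantile), 3 (Lmna added) with DESeq2, and 0 with all 24 libraries. The count from P1 to P14 there, also 2, was 1 (Akap9) with total reads, filterByExpr and only the groups compared, 1 (Lmna, with Akap9 and Pcnt both lost) with limma (TMM or quantile), and 0 with all 24 libraries and with the covariate. With DESeq2 it was 2, Akap9 and Lmna. From P1 to P14 in control nuclei, 0 became 1 with the covariate. Between genotypes at P14, 0 became 1 (Lmna) with DESeq2 and with limma (TMM or quantile), and the differences of the steps from P7 to P14 and from P1 to P14 went from 0 to 1 with DESeq2. Leaving out 1 library gave 1 to 2 calls from P7 to P14 in control, 0 to 2 from P1 to P14 in control, 1 to 2 in both of these comparisons in Casp2-depleted nuclei, and 0 in the others. With the replicate number as a block, Pcnt between P7 and P14 in control nuclei was at -2.80 (adjusted p = 0.0831, edgeR) and the block changed no other call of the 10 genes. It changed 5 of the 33 calls of list genes. Among values of the 10 genes beyond 2 SE and calls of list genes, the signs that turned were those of Pcm1 from P1 to P14 in control nuclei without P1 control replicate 3 (0.25, where leaving out the other libraries went down to -2.74), Akap6 from P7 to P14 in Casp2-depleted nuclei with the covariate (0.069), Dync1i2 from P7 to P14 in control with all 24 libraries (0.19) and Ryr2 there with quantile normalization (0.66). Smaller values turned too: with the scaling alone 12 turned and 78 did not over the 9 comparisons of the 10 genes. Of the 33 calls of list genes, 25 were lost with all 24 libraries, 25 with the covariate, 19 with total reads, 17 and 19 with limma (TMM and quantile) and 5 with DESeq2. The cause was not tested, except that fewer samples or genes enter some of these fits. The common coefficient of variation between pools of 1.5 and the 3 or 4 libraries per group limit what could be called at this depth.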
